A study of Rattus norvegicus with 65 samples.

Results

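The genes studied here are 8 genes that mark the basal, or myoepithelial, layer of the mammary gland: the basal keratins Krt5, Krt14 and Krt17, and the contractile genes Mylk, Acta2, Cnn1, Myh11 and Tagln. They were chosen by name. A probe set that the array annotation assigns to a single gene was found for 7 of the 8, and Krt17 was not analysed here. The 7 measured genes stand among 10411 genes in all, and all 7 were among the 8499 genes that passed the filter on low values and were tested.

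The mammary epithelium has an inner luminal layer, which makes milk, and an outer basal layer of myoepithelial cells, which squeeze the milk along the ducts. Myoepithelial cells are epithelial cells with a muscle program: they build the keratin filaments of basal epithelia and at the same time the actin, myosin and actin-binding proteins of smooth muscle. Krt5 and Krt14 pair to form one filament. The contractile genes are classical targets of serum response factor (SRF), and they are also made by vascular smooth muscle, pericytes and activated fibroblasts, whereas the basal keratins are not.

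The tumors were rat mammary tumors induced by a carcinogen and then passed from host to host in syngeneic rats. The arrays cover 11 lines of descent with a primary tumor and transplants 1 to 4 in each, and a transplant 5 in 10 of them (the one of series 10 was not analysed here). Each line is 1 series (10, 13, 17, 19, 25L, 25R, 32, 33, 34, 36 and 42). All groups descend from carcinogen-induced tumors, and the transplant groups alone were passed through hosts. The labels give neither the carcinogen, the rat strain nor an age, do not say whether 25L and 25R came from 1 animal, and give no invasive phenotype per tumor. One array was run per tumor, so a tumor has no replicate, and p-values rest on the spread between tumors. RNA came from pieces of frozen tumor. In such bulk samples fewer cells of a type and less RNA per cell cannot be told apart, and host cells are included.

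Values are probe set intensities, scaled to one median per array and taken to log2, and are called levels here. A difference of 1 is a doubling. The lowest level possible is the floor of 5.31, and a difference against a level at the floor is a lower bound. The median intensity before scaling was 96.1 to 176 per array, and the lowest belonged to the transplant 5 tumor of series 32. The ratio of the 3' to the 5' control probe sets of Gapdh, a sign of RNA quality, was -0.18 to 0.38 on the log2 scale, with a median of 0.048 in primary tumors and medians of 0.11 to 0.16 in the transplant generations. Its part in the results was not tested beyond the fit with it as a covariate. Against the label of a mammary tumor, Epcam, a surface protein of epithelial cells, was at 5.31 to 6.00 in all 6 tumors of series 42, and the keratin of simple epithelia Krt18 was at the floor in all 6. In primary tumors of the other 10 series Epcam was at 10.89 to 12.01. Each count of these genes called was therefore also computed without series 42, and none of the 7 counts changed.

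The promoters of 4 of the 8 genes were matched in the RefSeq table (rat build GRCr8), and 3 are shown, each a window of 300 bases around the annotated start, because the levels of the contractile genes varied together over the tumors and SRF is their known regulator. Capitals mark matches to the CArG box, the site that SRF binds, allowing up to 1 mismatch in its A/T core. The Acta2 promoter lies at chr1:241172454-241172753 on the minus strand, that of Cnn1 at chr8:28908187-28908486 on the plus strand and that of Krt5 at chr7:134730520-134730819 on the minus strand.
Acta2: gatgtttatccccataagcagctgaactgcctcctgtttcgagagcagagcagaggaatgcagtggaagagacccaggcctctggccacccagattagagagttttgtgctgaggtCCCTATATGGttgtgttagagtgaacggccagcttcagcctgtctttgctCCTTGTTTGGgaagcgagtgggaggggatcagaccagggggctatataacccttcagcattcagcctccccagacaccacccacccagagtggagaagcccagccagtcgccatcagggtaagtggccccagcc
Cnn1: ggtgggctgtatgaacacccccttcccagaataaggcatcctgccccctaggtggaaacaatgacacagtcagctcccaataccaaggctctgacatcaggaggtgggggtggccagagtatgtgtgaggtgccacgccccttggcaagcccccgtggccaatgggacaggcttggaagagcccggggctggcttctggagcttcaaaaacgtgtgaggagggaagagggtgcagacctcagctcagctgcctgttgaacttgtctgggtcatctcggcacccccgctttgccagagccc
Krt5: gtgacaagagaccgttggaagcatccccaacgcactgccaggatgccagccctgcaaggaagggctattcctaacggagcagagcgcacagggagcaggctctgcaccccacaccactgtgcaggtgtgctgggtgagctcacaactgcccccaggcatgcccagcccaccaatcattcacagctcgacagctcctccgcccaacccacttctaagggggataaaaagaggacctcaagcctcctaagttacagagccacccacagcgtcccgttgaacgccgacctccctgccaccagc
The Acta2 promoter held 2 matches, CCCTATATGG starting 134 bases before the start site and CCTTGTTTGG starting 84 bases before it. Neither was an exact match. Such a match, read on both strands, was present in 9.42% of 33469 promoters of the same length, and an exact CArG box in 1.64%. The letters were not found in this window for Cnn1, Krt5 or Mylk. The Mylk window, at chr11:79498525-79498824 on the minus strand, lies inside the annotated gene (79288243-79535450) and not at its outermost start. A match is a description of the letters only.

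The basal keratins were high in most lines, low throughout in one, and low from transplant 3 on in a pair of others. Krt5 was between 9.61 and 12.29 in all 47 tumors of the 8 series other than 32, 34 and 42, with a median of 11.47. In series 42 it was at 5.66 to 6.24 in every tumor, the primary tumor included. In series 32 and 34 it was at 11.15 to 12.13 in the primary tumor and transplants 1 and 2, and at 5.31 to 8.78 in transplants 3 to 5. These series are singled out after their values were seen, and no test compares them.

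The loss of Krt5 signal was stepwise in one line and abrupt in the other. In series 32 the levels from the primary tumor to transplant 5 were 11.77, 12.13, 11.29, 8.78, 7.67 and 5.31, the last at the floor. In series 34 they were 11.81, 11.63, 11.15, 5.51, 5.80 and 6.07. The step from transplant 2 to transplant 3 in series 34 was a 49.7-fold lower intensity. Series 36 had a lower value only at the end, with 11.47 to 12.16 up to transplant 4 and 9.61 in transplant 5. The single tumor at that point has no replicate.

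Krt14, the partner of Krt5 in the filament, followed the same lines. In series 32 it was at 9.88, 9.38 and 9.99 and then at 6.97, 6.95 and 6.13. In series 34 it was at 10.17, 10.14 and 9.92 and then at 7.09, 6.71 and 6.78. In series 42 all 6 tumors were at 6.45 to 6.94, and in series 36 Krt14 went from 12.02 in transplant 4 to 9.45 in transplant 5. The 2 keratins therefore gave the same tumors as low, without overlap with the range of 8.64 to 12.16 in the other 8 series.

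Where the keratins were kept, Krt14 was often higher in late transplants than at the start. In series 17 it was at 10.46 in the primary tumor and 12.16 in transplant 5, in series 33 at 8.64 and 10.90, and in series 13 at 8.67 and 9.83. In 6 of 10 series with both tumors transplant 5 was above its primary tumor. Krt5 was above in 4 of 10. Averaged over lines the difference of transplant 5 from primary was -0.20 ± 0.38 (SE) for Krt14 (limma adjusted p = 0.770) and -1.22 ± 0.53 for Krt5 (limma adjusted p = 0.108), neither past the threshold of 0.05.

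**Figure D1:**
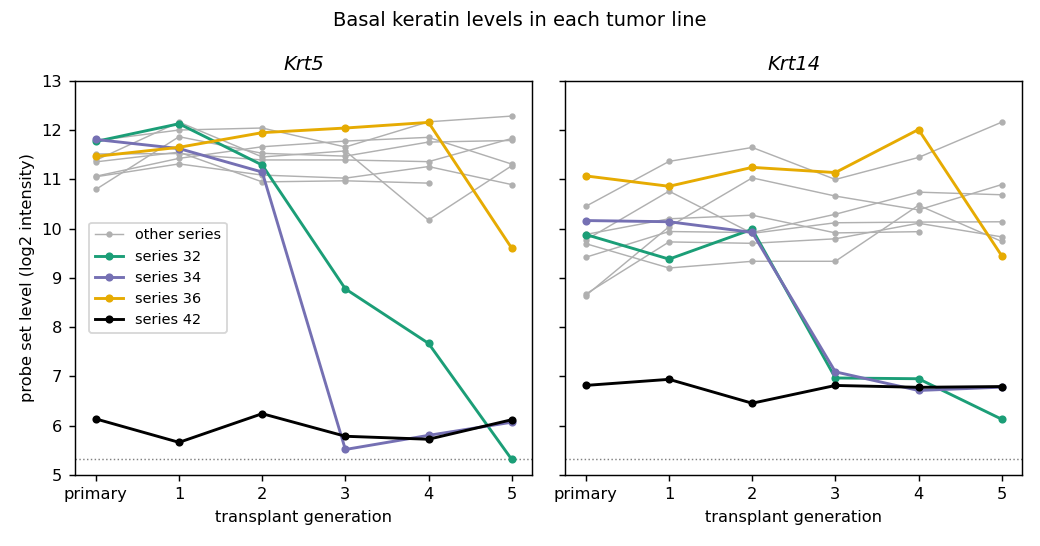
Levels (log2 intensity, y axis) of Krt5 and Krt14 in the primary tumor and transplants 1 to 5 (x axis); each line of points is 1 series, each point 1 tumor, and the dotted line is the floor. Series 32 and 34 stand at 9.38 or above up to transplant 2 and at 8.78 or below from transplant 3, series 42 is at 5.66 to 6.94 throughout, and series 36 is lower in transplant 5 alone.

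The contractile genes followed other lines as well. Mylk encodes myosin light chain kinase, which switches on myosin, and it showed the largest fall of the 7 genes by transplant 5. In the 11 primary tumors it was at 6.18, 9.53 and 11.32 (lowest, median and highest), and in the 10 transplant 5 tumors at 5.31, 7.54 and 10.61, so the 2 groups overlapped. Within lines the difference was -1.49 ± 0.42 (SE; 95% interval -2.33 to -0.65), a 2.80-fold lower intensity (limma adjusted p = 0.0143). It was lower in 6 of 10 series and higher in 4. The call was lost when series 17, 32 or 34 was left out (limma adjusted p = 0.0655, 0.0671 and 0.0573), with array weights (0.216), without the series as a block (0.265) and with 1 value per series (0.185).

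Series 17 was the clearest case of contractile signal that stood high in the primary tumor and low in every transplant. Mylk was at 11.32 in the primary tumor and at 7.36, 7.70, 8.47, 7.93 and 6.28 in transplants 1 to 5. Myh11, the heavy chain of smooth muscle myosin, was at 10.52 and then at 6.03, 6.74, 7.59, 7.43 and 5.32. Cnn1, calponin, which binds actin and damps the myosin motor, was at 10.29 and then at 6.23 to 7.68. Acta2, smooth muscle actin, was at 11.54 and then at 9.12 to 10.53. Tagln, the actin-binding protein transgelin, differed least, at 10.85 and then at 9.21 to 10.69. All 5 genes had a transplant mean below the primary tumor there, while Krt14 was above its primary tumor in all 5 transplants and Krt5 was at 11.66 to 12.29.

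In series 13 and 25L the order was turned around. Myh11 in series 13 was at 5.49 in the primary tumor and at 9.54, 9.44, 11.40, 10.90 and 8.78 in the transplants. In series 25L it was at 6.60 and then at 9.58, 9.58, 10.51, 9.55 and 7.78. Acta2 in series 13 was at 9.38 and then at 11.19 to 12.53, and Tagln at 7.99 and then at 9.53 to 11.05. All 5 contractile genes had a transplant mean above the primary tumor in series 13, 25L and 25R, and all 5 had one below it in series 17, 19, 32 and 42. Acta1, the actin of skeletal muscle, was high in some of the same tumors, at 11.11 in transplant 3 of series 13 and 12.36 in transplant 3 of series 25L. In that tumor of series 25L the skeletal muscle list (8 measured markers) averaged 10.27 against 6.31 to 8.32 in the other tumors of the line, and in series 13 it averaged 6.27 to 7.81. Its part in these levels was not tested.

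In series 19 the contractile genes other than Mylk were lower from transplant 2 on than in both earlier tumors. Tagln was at 8.69 in the primary tumor and 10.64 in transplant 1, and then at 5.31, 5.31, 6.28 and 5.47. The step from transplant 1 to transplant 2 was at least 40.0-fold, since the later level is at the floor. Cnn1 was at 7.37 and 9.65 and then at 6.97, 6.48, 6.14 and 6.03, and Acta2 was at 9.78 and 11.16 and then at 8.71 to 9.37. Myh11 was at 6.95 and 7.03, then at the floor in transplant 2 and at 5.67, 5.77 and 5.82 afterwards. Mylk was at 9.53 and 10.38 and then at 8.24 to 9.57 from transplant 2 on, where the first of these tumors was still above the primary tumor. The keratins showed no such break in series 19: Krt5 was at 10.90 to 11.32 in all 6 tumors and Krt14 at 9.20 to 10.48.

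In the lines that lost the keratins the contractile genes split. Mylk in series 32 was at 10.24, 10.53, 9.81, 7.87, 7.37 and 5.31, and in series 34 at 9.76, 9.99, 10.03, 8.66, 7.06 and 5.95. Acta2 in series 34 was still at 11.28 and 10.73 in transplants 3 and 4, when both keratins were already low, and at 9.48 in transplant 5. Tagln in series 34 was likewise at 10.29 in transplant 3 and 7.82 in transplant 5. Cnn1 in series 32 was at 8.86, 9.05, 7.31, 6.14 and 6.86 and then at 9.26 in transplant 5. That last tumor, with the lowest intensity before scaling, was high for Cnn1 and at the floor for Krt5, Mylk and Myh11.

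Series 42 was low among the lines for all 5 contractile genes. Mylk was at 5.31 to 6.18 and Cnn1 at 5.87 to 6.42 in all 6 tumors, the lowest line means of the 11 for both. Acta2 was at 8.54 to 9.72, with the lowest level of all 65 tumors in transplant 5, and Tagln was at 7.88 to 10.28; both line means were the next to lowest. In series 36 Cnn1 was at 6.17 to 6.62 in all 6 tumors while Krt14 was at 9.45 to 12.02. Desmin (Des), the filament of muscle cells, was at 11.09 to 11.83 in series 42 and at no more than 8.96 in the other 10 series. The 3 probe sets that the annotation shares between Acta2 and cardiac actin (Actc1) were at 10.83, 10.76 and 9.15 in the primary tumor of series 42, each above the highest of the other 64 tumors on the same probe set (8.21, 8.17 and 8.41). The probe set of Acta2 alone was at 9.72 in that tumor, within the range of 8.54 to 12.53 of the others. Skeletal muscle genes were high in it too. Acta1 was at 12.23, against at most 8.24 in the primary tumors of the other 10 series. The skeletal muscle list averaged 8.29, the highest of the primary tumors. Its part in these levels was not tested.

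**Figure D2:**
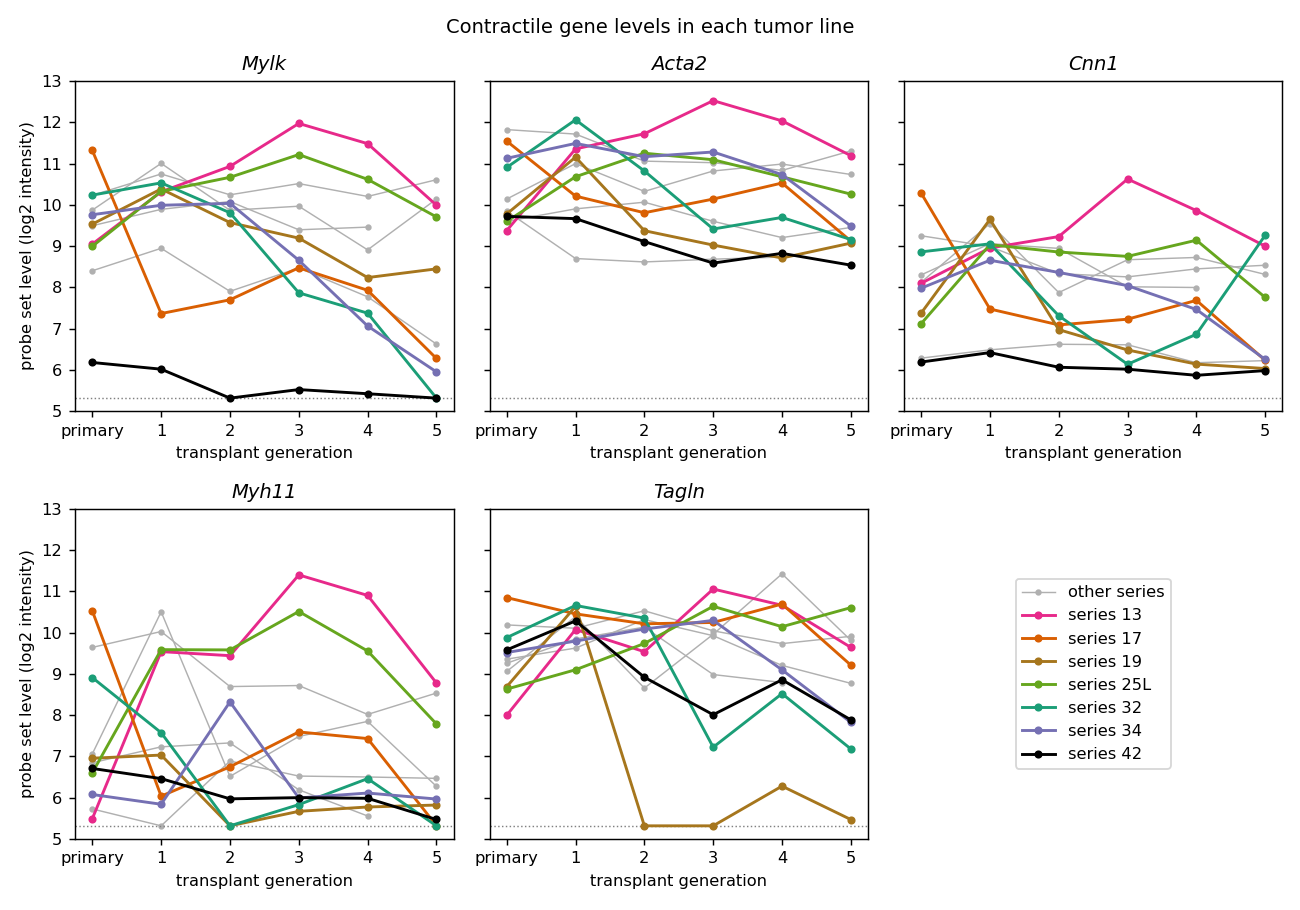
Levels (log2 intensity, y axis) of the 5 contractile genes in the primary tumor and transplants 1 to 5 (x axis), 1 line of points per series and 1 point per tumor, with the floor dotted. Series 17 starts high and is lower in all transplants, series 13 and 25L start low, Tagln in series 19 is at 5.31 to 6.28 from transplant 2, and series 42 has the lowest line mean for Mylk and Cnn1 and the next to lowest for Acta2, Myh11 and Tagln.

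Set against the primary tumors as a group, the transplants as a whole showed no difference that passed the test. None of the 7 genes was called for the mean of transplants minus primary by limma (adjusted p from 0.370 to 0.995, 0 of 7 at an unadjusted p under 0.05), where 9.5% of all genes tested were called and 5.06% were called lower, and none was called for transplant 1 minus primary, where 0% of all genes were (0 of 7 members and 584 of all genes at an unadjusted p under 0.05). The estimates for the transplants lay between -0.50 for Krt5 (95% interval -1.30 to 0.30) and 0.12 for Krt14. For Acta2, Cnn1, Myh11 and Tagln the sign of the mean turned positive without the primary tumor of series 17, to 0.033, 0.12, 0.31 and 0.063.

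In transplant 5 all 7 estimates were below 0, and 1 of 7 genes, Mylk, was called lower, where 14.1% of all genes were called and 6.72% were called lower. Acta2 differed by -0.62 ± 0.29 (SE; limma adjusted p = 0.131) and was lower in 7 of 10 series. Myh11 differed by -0.83 ± 0.53, Tagln by -0.74 ± 0.44 and Cnn1 by -0.58 ± 0.36 (limma adjusted p = 0.294, 0.249 and 0.277). A share of 1 in 7 lies near the background. The median over the 7 genes was -0.74, beside 0.025 over all genes tested.

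Within the transplants some of the genes fell with passage. The slope over transplants 1 to 5 was below 0 for all 7 genes, and 3 of 7 were called lower: Mylk, Acta2 and Krt5. Over all genes 4.82% were called and 2.79% were called lower. The median slope over the 7 genes was -0.25 per transplant, beside 0.0042 over all genes. Transplant 1 is the start of this slope, and in transplant 1 all 7 estimates lay above the primary tumors, by 0.22 to 0.72, none of them called.

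Mylk fell by 0.41 ± 0.093 (SE) per transplant (limma adjusted p = 0.0160), and its slope was below 0 in 11 of 11 series. Acta2 fell by 0.23 ± 0.064 (limma adjusted p = 0.0347; 9 of 11 series), and Krt5 fell by 0.39 ± 0.12 (limma adjusted p = 0.0453; 7 of 11 series). Tagln had a slope of -0.30 ± 0.097 and Cnn1 one of -0.23 ± 0.079, past the unadjusted level only (limma adjusted p = 0.0599 and 0.0775). The slope was below 0 in 10 of 11 series for Cnn1 and Myh11 and in 5 of 11 for Krt14. All 3 calls were lost without series 32, 34 or 36 (limma adjusted p from 0.0743 to 0.261), without the series as a block, with array weights, and with 1 value per series, where 0 of the 8499 genes were called for the slope and 906 had an unadjusted p under 0.05. Most slope calls over all genes were lost in the other settings too. The 410 of the main fit became 7, 4 and 3 without series 32, 34 and 36. They became 4 with array weights and 0 without the block. Krt5 also lost its call without series 10, 13 or 25R (0.0557, 0.0510 and 0.0657), without the filter on low values (0.0588) and without the transplant 5 tumor of series 32 (0.126), and Acta2 without series 19 (0.0632) and without that tumor (0.0714). The 3 shared probe sets of Acta2 and Actc1 had slopes of 0.042, 0.0090 and -0.15, none called, against -0.23 for the probe set of Acta2 alone.

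The 2 keratins and Mylk had slopes that differed among lines, and the other 4 genes had slopes that were not shown to differ. The test for a difference in slope among series called Krt5 (limma adjusted p = 5.94e-05), Krt14 (0.000662) and Mylk (0.00112), which is 3 of 7, where 24.3% of all genes were called. For Acta2, Tagln, Cnn1 and Myh11 the limma adjusted p was 0.0571, 0.113, 0.277 and 0.696, and Acta2 was called under other settings, such as quantile normalization (0.0210). The slope of Krt5 was -1.73 per transplant in series 32 and -1.65 in series 34, and lay between -0.39 and 0.069 in the other 9. The slope of Krt14 was -0.95 and -0.99 in those lines and between -0.21 and 0.23 elsewhere. For Mylk the slopes there were -1.29 and -1.11, the others lying between -0.52 and -0.0099. The steepest slope of Cnn1 (-0.81) and that of Tagln (-0.94) belonged to series 19.

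**Figure D3:**
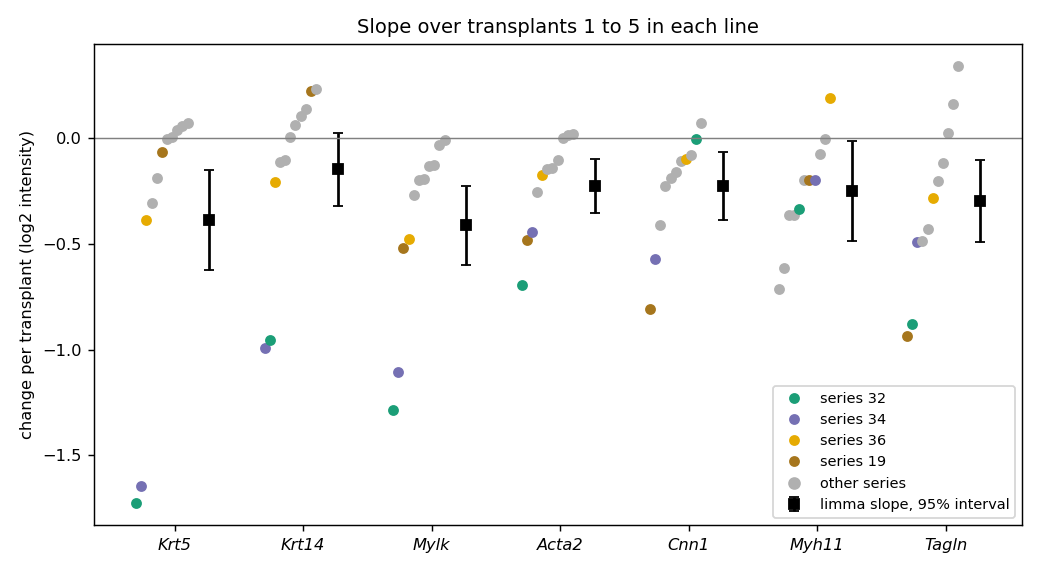
Slope of the level per transplant over transplants 1 to 5 (log2 intensity per transplant, y axis) for each gene (x axis); circles are the 11 series in order of slope, and black squares the limma estimate with its 95% interval. Series 32 and 34 stand apart for Krt5, Krt14 and Mylk, series 19 has the steepest slope for Cnn1 and Tagln, and all 11 slopes of Mylk are below 0.

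The level of each gene differed among lines more than among generations. All 7 genes were called for differences among series (limma adjusted p from 2.60e-10 to 0.00011), where 83.5% of all genes were called, so the call itself does not set them apart. Tagln lost its call without series 19 (limma adjusted p = 0.107). Line accounted for 67.4% of the variance of Krt5 and 70.4% of that of Krt14, with 6.44% and 2.49% for generation. For Mylk the shares were 64.7% and 10.7%, and for Tagln, the lowest for line, 43.8% and 10.1%. The median over all genes tested was 43.0% and 6.06%. For differences among generations 1 of 7 genes, Mylk, was called (limma adjusted p = 0.0390), where 4.79% of all genes were called. That call was lost without any one of series 10, 17, 19, 25R, 32, 34 and 36 (limma adjusted p from 0.0503 to 0.204).

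Ordered by their means over lines, neighbouring generations differed by less than the larger of their SDs for all 7 genes. For Krt5 the order was transplant 1, transplant 2, primary, transplant 3, transplant 4 and transplant 5, from 11.18 ± 1.85 to 9.65 ± 2.74 (SD, n = 11 and 10). For Mylk transplant 1 was highest at 9.59 ± 1.56 (SD, n = 11) and transplant 5 lowest at 7.84 ± 2.15 (SD, n = 10). Ordered by line, Mylk in series 42 (5.63 ± 0.38, SD, n = 6) lay beyond the spread of the next line, series 36 (8.02 ± 0.80, n = 6). Cnn1 in series 42 (6.09 ± 0.19) likewise lay below series 36 (6.40 ± 0.20), by a small margin. Krt5 in series 17 (11.99 ± 0.23), the highest line, lay beyond the spread of the next, series 25L (11.54 ± 0.39). Krt5 in series 42 (5.94 ± 0.25) did not lie beyond the spread of series 34 (8.66 ± 3.15), which spans both of its states.

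Across tumors the genes varied in 2 groups that were only loosely tied. Krt5 and Krt14 correlated at a Pearson r of 0.91 over 65 arrays, at 0.94 over the 11 series means and at 0.86 after each series mean was removed. The 10 pairs of contractile genes had r from 0.39 to 0.78 (median 0.69), and from 0.54 to 0.78 (median 0.66) after the series means were removed. The 10 pairs of 1 keratin with 1 contractile gene had r from 0.24 to 0.74 (median 0.37), and from 0.12 to 0.69 (median 0.33) within series. Arrays of a line share their descent and all arrays share the scaling, so these values describe the tumors and carry no p.

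By Pearson r Mylk was the contractile gene closest to the keratins. Its r with Krt5 was 0.74 over 65 arrays, the highest of the mixed pairs, and 0.56 without series 42, while its r with Cnn1 was 0.78. By rank it stood nearer to the contractile genes. Its Spearman rho was 0.48 with Krt5, below that of Krt5 with Tagln (0.52), and 0.83 with Cnn1. The r of Mylk with Tagln was 0.39 over 65 arrays, the lowest of the contractile pairs. Within series it was 0.60, and the lowest contractile pair was Myh11 with Tagln (0.54). Krt14 and Cnn1 correlated at 0.25, and at -0.03 without series 42, so that relation rested on 1 line.

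**Figure D4:**
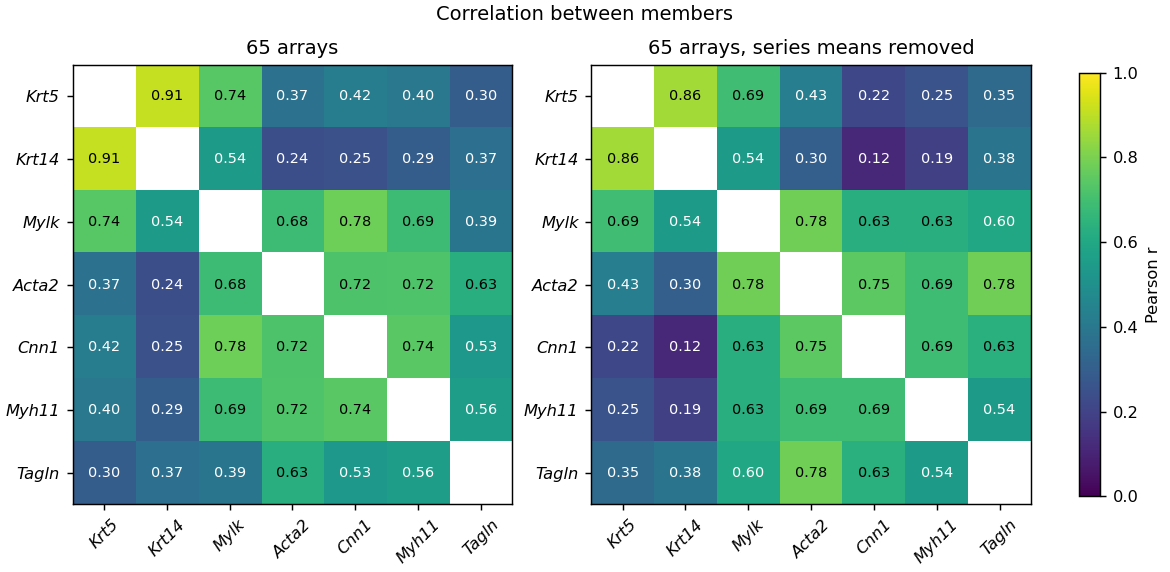
Pearson r between the 7 genes over 65 arrays (left) and after removing each series mean (right), with the colour scale from 0 to 1. Krt5 with Krt14 is at 0.91 and 0.86, contractile pairs are mostly above 0.5, and Mylk is the contractile gene closest to Krt5, at 0.74 and 0.69.

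Krt5 and Cnn1 could be low one without the other, in either direction. In transplant 5 of series 17 Krt5 was at 12.29, the highest of all 65 tumors, while Cnn1 was at 6.23. In transplant 3 of series 34 Krt5 was at 5.51 and Cnn1 at 8.04. Acta2 was at 9.12 and Tagln at 9.21 in the first of these tumors, and Mylk was at 8.66 and Myh11 at 5.99 in the second. In series 42 both Krt5 and Cnn1 were low in all 6 tumors. These tumors were chosen after their values were seen.

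**Figure D5:**
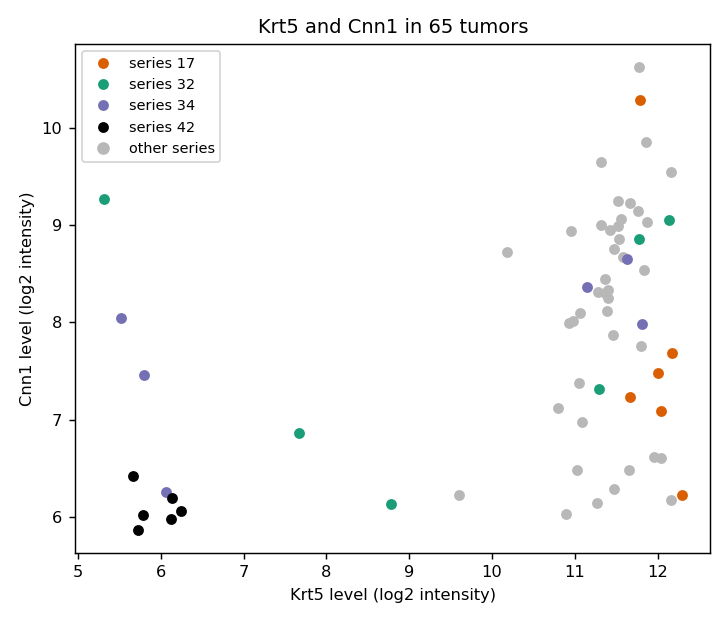
Level of Cnn1 (log2 intensity, y axis) against level of Krt5 (log2 intensity, x axis) in the 65 tumors, 1 point each, with 4 series in colour. Tumors of series 17 keep Krt5 at 11.66 or above while Cnn1 runs from 10.29 down to 6.23, tumors of series 32 and 34 reach low Krt5 with Cnn1 between 6.14 and 9.26, and series 42 is low for both.

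Over 65 arrays the highest r with the mean of the standardised keratins belonged to Itgb4 (0.95), the integrin chain of hemidesmosomes, Trim29 (0.95), Perp (0.94), a protein of desmosomes, Fxyd3 (0.94), Ctnnal1 (0.94) and Cdh1 (0.94), which is E-cadherin. Within series the order began with Cdh1 (0.95), Rab25, Perp and Epcam (each 0.93). For the contractile genes the closest was Myl9, the light chain that Mylk phosphorylates, at 0.88 over all arrays and 0.89 within series. Fmod followed over all arrays (0.81), and within series the tropomyosins Tpm1 (0.80) and Tpm2 (0.72) were among the 6 closest.

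Some of the other basal epithelial genes were low where the keratins were low, and others were not. Of 29 listed genes 17 were tested. In series 32 and 34, 7 of the 17 were lower in all of transplants 3 to 5 than in any earlier tumor, 1 was higher and 9 overlapped. In series 42, 7 lay below all tumors of the 8 series other than 32 and 34, 2 lay above and 8 overlapped. The same counts were not made over all genes, so no background stands beside them. The tumors compared were singled out by their keratin levels. The counts describe these 17 genes and do not set basal genes apart from other genes. Itgb4 was at 9.25 to 10.01 in series 32 and 34 up to transplant 2, at 6.17 to 7.78 in transplants 3 to 5, and at 6.14 to 6.59 in series 42. Sfn, the epithelial 14-3-3 protein, was at 9.22 to 10.80, then at 5.31 to 5.64, and at 5.31 to 5.43 in series 42. The basal keratin Krt15 was at 8.16 to 12.02, then at 5.31 to 7.50, and at 5.31 to 5.92. Cav1, caveolin, was higher, with 8.74 to 10.21 up to transplant 2 of those lines, 11.35 to 11.90 in transplants 3 to 5, and 12.23 to 12.60 in series 42. Among those that overlapped in both contrasts, Pdpn, podoplanin, was at up to 9.70, then at 9.59 to 10.76, and at 10.07 to 10.74 in series 42, and Cdh3, P-cadherin, was at 8.21 to 8.52, then at 8.40 to 9.18, and at 8.14 to 8.32. Of the 17 tested genes 10 (58.8%) had slopes that differed among series, against 24.3% of all genes.

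Between transplant 5 and primary 4 of these 17 genes (23.5%) were called, 2 in each direction, against 14.1% of all genes. Cav1 rose by 1.01 ± 0.27 (SE; limma adjusted p = 0.00968) and Pdpn rose by 0.89 ± 0.24 (limma adjusted p = 0.00941). Jag2, a Notch ligand, fell by 0.81 ± 0.24 (limma adjusted p = 0.0201), and Egfr, the receptor for epidermal growth factor, fell by 0.71 ± 0.21 (limma adjusted p = 0.0182). For the mean of all transplants 1 rose (Pdpn) and 3 fell (Jag1, Jag2 and Egfr), again 23.5%, against 9.5% of all genes. The median difference of the list in transplant 5 was 0.050, beside 0.025 over all genes.

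Of the other smooth muscle contractile genes 19 of 25 listed were tested. In transplant 5 and for the slope 2 of 19 (10.5%) were called, against 14.1% and 4.82% of all genes. In transplant 5 Myl9 fell by 1.12 ± 0.30 (SE; limma adjusted p = 0.00981) and Smtn, smoothelin, rose by 0.34 ± 0.11 (limma adjusted p = 0.0358). The slope called Myl9 (-0.30 per transplant) and Tpm1 (-0.15 per transplant), both lower. For the transplants as a whole limma called 0 of 19, with 4 at an unadjusted p under 0.05. Actg2, the other smooth muscle actin, stayed between 9.04 and 10.89 in all 65 tumors, and its level in series 17 was 10.56 in the primary tumor and 9.45 in transplant 5. Myl9 repeated the pattern of series 17 and 19: it was at 11.76 and then at 8.92 to 10.10 in series 17, and at 10.05 and 10.98 and then at 7.49 to 8.97 in series 19. Not every gene of the list did so. In the transplants of series 17 Tpm1 was at 10.41 to 11.25 and Cald1 at 10.40 to 10.73. The highest primary tumors of the 10 series other than 42 were at 11.05 for Tpm1 and 10.57 for Cald1.

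Of 4 listed genes of SRF and its cofactors 2 were tested, and 1 was called for the slope, where 4.82% of all genes were called. Srf fell by 0.054 ± 0.015 (SE) per transplant (limma adjusted p = 0.0321), and lay between 8.58 and 9.50 in all 65 tumors. Among broadly expressed relatives of the contractile genes, those of calponin and transgelin that were called went apart. Over all transplants Cnn3 fell by 0.52 ± 0.13 (limma adjusted p = 0.00803) and Tagln2 rose by 0.28 ± 0.086 (limma adjusted p = 0.0279). In transplant 5 Tagln2 rose by 0.52 ± 0.11 (limma adjusted p = 0.00222), against -0.74 ± 0.44 for Tagln. Of 7 tested relatives, which include nonmuscle myosins and actins, no other was called in either comparison. Over all genes 9.5% were called for the transplants and 14.1% in transplant 5, so 1 of 7 in transplant 5 lies near the background.

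Luminal epithelial genes were low in the same tumors as the keratins. Epcam in series 32 was at 11.91, 11.62, 11.56, 9.17, 7.70 and 5.58, and Krt8, a luminal keratin, was at 11.05 to 12.15 in series 32 and 34 up to transplant 2, at 5.31 to 8.22 afterwards, and at 5.31 to 6.56 in series 42. Of 10 tested luminal genes limma called 6 lower in transplant 5 and 8 lower by slope, against 6.72% and 2.79% of all genes, and the other estimates were below 0 too. Without series 34 or series 36 limma called 4 and 3 of all genes for the slope, all of them higher. No luminal gene was therefore called lower by slope in those fits. The difference in transplant 5 was -2.38 ± 0.41 (SE) for the tight junction gene Cldn3 (limma adjusted p = 0.000185) and -2.28 ± 0.45 for Prlr, the prolactin receptor (limma adjusted p = 0.000672). All 10 were called for slopes that differed among series, against 24.3% of all genes. The mean of the luminal list over arrays correlated with the keratin mean at 0.88 and with the contractile mean at 0.57 (0.86 and 0.48 within series).

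Markers of other cells that make contractile proteins are given beside those results. The mean over 8 measured pericyte and vascular smooth muscle markers was 6.47 to 7.55 in primary tumors and 6.33 to 7.40 in transplant 5. In transplant 5 minus primary 1 of the 5 tested, Mcam, was called, with a difference of -0.69 ± 0.24 (SE; limma adjusted p = 0.0444), where 14.1% of all genes were called. Kcnj8, a defining pericyte marker, was near the floor, at 5.31 to 6.75. Other markers of the list reached higher levels: over all 65 tumors Pdgfrb was at 5.31 to 10.29 and Rgs5 at 5.47 to 9.44. In series 17 the mean of this list was 7.15 in the primary tumor and 6.64 to 7.48 in the transplants. In series 19 it was 7.17 in the primary tumor and 7.34 in transplant 1, and 6.30 to 6.59 from transplant 2 on, where most contractile genes were lower too. Its r with the contractile mean was 0.22 over 65 arrays and 0.29 within series. The part of these cells in the contractile levels was not tested.

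The mean over 10 fibroblast markers was 6.85 to 10.94 in primary tumors and 8.21 to 11.65 in transplant 5. In series 32 it was 6.85 in the primary tumor, and already 10.24 and 9.80 in transplants 1 and 2, where the keratins were still high. It was 11.48, 11.59 and 11.65 in transplants 3 to 5. In series 34 it was 8.85 to 9.59 up to transplant 2 and 10.84 in transplant 3, the tumor with the sudden keratin loss. In transplants 4 and 5 of series 34, where the keratins stayed low, it was 10.75 and 9.80. In series 42 it was 8.21 to 9.51. Of 9 tested fibroblast genes limma called 0 in the transplants as a whole and in transplant 5 (1 and 3 at an unadjusted p under 0.05), where 9.5% and 14.1% of all genes were called. All 9 estimates were above 0. The r of this mean with the keratins was -0.23 over 65 arrays and -0.45 within series, and with the contractile genes -0.18 and -0.28, and its part in the keratin levels was not tested. The endothelial list (5 tested) and the epidermal list (4 tested) had 0 calls by limma in the transplants, in transplant 5 and in the slope, with 1 endothelial gene at an unadjusted p under 0.05 in each of the last 2 and 0 in the first, and 0 epidermal genes in any. Over all genes 9.5%, 14.1% and 4.82% were called in these comparisons, so 0 calls in lists this short lies near the background.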

How the data were processed

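RNA of 65 rat mammary tumors was measured on 65 Affymetrix arrays. The authors deposited linear intensities per probe set (1 to 12011). Their summary and normalization methods are not stated in the sources here. Arrays were scaled to a median of 162, values below 39.8, the pooled 10th percentile, were raised to that value, and logs to base 2 were used. Probe sets with a mean log2 below 6.35 were left out. A gene was read from its brightest probe set with 1 gene in the platform annotation.

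Tests used limma 3.58.1 in R 4.3.3 over 8499 genes, with generation and series as factors and Benjamini-Hochberg adjustment; differences in slope among series used the 54 transplant arrays. The fit was tested on simulated data. Alternatives changed the scaling, floor, filter, probe set rule, block, array weights and arrays. Generations were paired by series, since per the labels' design text each line was passed on from its own primary tumor. Beyond the line's mean, the model takes its tumors as independent. Correlations are descriptions. The members and lists were chosen with earlier results of these data known. Named genes of a list were those past the threshold in the comparison described, at most 6 by size, and likeness took the 6 genes with the highest r. Genes described by line or range (Itgb4, Sfn, Krt15, Krt8, Epcam, Acta1, Des, Krt18, Cav1, Cdh3, Actg2, Myl9, Tpm1, Cald1, Kcnj8, Pdgfrb, Rgs5) were picked after their values were seen. No value column lacked a sample. Array number limits the precision.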

Additional observations from a re-analysis of the deposited data

Results flagged for a closer look

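A test of the slope itself found differences among series for Krt5 (limma adjusted p = 5.94e-05), Krt14 (limma adjusted p = 0.000662) and Mylk (limma adjusted p = 0.00112). In 11 of 84 groups of 5 to 10 tumors (a series for one gene, or transplant 5 for one gene), 1 tumor lay far from the others; chance gives this in about 1 in 20 groups. For Krt5 the tumors were the primary tumor of series 25L, the lowest of its line at 10.80, transplant 5 of series 33, the highest at 11.83, and transplant 5 of series 36, the lowest at 9.61. For Krt14 they were the primary tumor of series 13, the lowest at 8.67, transplant 1 of series 25R, the highest at 10.76, and transplant 2 of series 42, the lowest at 6.45. The primary tumor of series 10 was the highest of its line for Acta2 at 9.85. For Cnn1 the primary tumor of series 17 was the highest at 10.29 and transplant 1 of series 19 the highest at 9.65. For Myh11 transplant 1 of series 25R was the highest at 10.50 and transplant 2 of series 34 the highest at 8.32.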

How the results depend on the processing

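Counts of members called are given first. For transplant 5 minus primary the count of 1 went to 0 without the replicate block, with array weights and with 1 value per series (1 of 7 at an unadjusted limma p under 0.05 in each), and lay between 0 and 2 with 1 series left out. For the slope the count of 3 went to 5 without rescaling of arrays, to 1 without the transplant 5 array of series 32 (added after seeing the data), and to 0 without the replicate block, with array weights and with 1 value per series (4, 5 and 6 of 7 at an unadjusted limma p under 0.05); it lay between 0 and 4 with 1 series left out. For differences among generations the count of 1 went to 0 with the floor at the 20th percentile, with no filter, without the replicate block, with the Gapdh 3' to 5' covariate, with weighted arrays and without the transplant 5 array of series 32, and lay between 0 and 2 with 1 series left out. For slopes among series the count of 3 went to 7 with array weights, a setting that called 5596 of 8499 genes. No other count moved beyond 1.5 times. Calls over all genes moved too. For transplant 5 minus primary 1197 became 37 without the block, 307 with array weights and 133 with 1 value per series. For the slope 410 became 519 without rescaling, 72 without the transplant 5 array of series 32 and 4 with array weights. It was 0 without the block and with 1 value per series. For differences among generations 407 became 8 without the block and 273 to 417 in the other listed settings with all series kept. The cause of these moves was not tested.

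Estimates that turned sign were all uncalled. For the mean of transplants, without the primary array of series 17 (added after seeing the data), Acta2 was at 0.033, Cnn1 at 0.12, Myh11 at 0.31 and Tagln at 0.063; with the Gapdh covariate Myh11 was at 0.085 and Tagln at 0.028; Tagln was at 0.031 with the higher floor, 0.0086 with no floor, 0.011 with 1 value per series and 0.022 without the transplant 5 array of series 32. Krt14 in transplant 5 was at 0.19 with array weights and 0.040 without that array. With 1 series left out, the mean of transplants lay between -0.064 and 0.34 for Krt14, -0.37 and 0.034 for Acta2, -0.35 and 0.12 for Cnn1, -0.53 and 0.31 for Myh11 and between -0.23 and 0.20 for Tagln, and transplant 5 minus primary between -0.46 and 0.18 for Krt14. The number of arrays limits precision, and levels near the floor carry no order.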
